A study of Mus musculus with 16 samples.

Results

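The expression of 10 genes of the NF-kB system was measured across 4 sorted populations of mouse pancreatic cancer cells. The genes were a fixed list of subunits (Nfkb1, Nfkb2, Rela and Relb), inhibitors and regulators (Nfkbia, Tnfaip3 and Bcl3) and direct targets (Birc3, Icam1 and Tnfaip2), listed by name, with earlier results of these data known. They were found by Entrez identifier among 24467 genes in the files. All 10 passed the filter on low counts, as did 15963 genes in all.

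The cells were a mouse pancreatic ductal adenocarcinoma (PDAC) line labelled KPC 7TCF-eGFP/Porcn-DMA, implanted orthotopically, so that tumours grew in the host pancreas. The labels name this line, and so the same genotype and constructs, for all 4 populations. Whether every sorted cell carried them was not tested. Tumours were dissociated and sorted into cells negative for both reporters (DN), GFP-positive cells (GFP), mScarlet-positive cells (mScarlet) and cells positive for both (DP), with 4 libraries per population. A 7TCF-eGFP reporter places green fluorescent protein under TCF binding sites, and the GFP gate stands for the WNT-responsive population of the design. The design also names a WNT-secreting population, but no label ties mScarlet to it in words. The sources used here give no agent, host strain, host sex or age, nor the make-up of Porcn-DMA or whether the line was 1 clone. The design gives 4 mice per group, and the libraries carry numbers 1 to 4 within each gate.

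NF-kB is a family of dimeric transcription factors held in the cytoplasm by inhibitor proteins of the IkB family. In the canonical pathway, signals from receptors for TNF, IL-1 or microbial products activate the IKK kinase complex, which marks IkB-alpha for degradation and frees dimers of RelA and p50. In the non-canonical pathway, processing of the Nfkb2 product p100 releases dimers of RelB and p52. Both routes act mainly on proteins, so transcripts of the subunits do not measure activity, whereas several inhibitors and targets are themselves induced by NF-kB. In pancreatic cancer the pathway is known for its links with inflammation, survival of tumour cells and resistance to therapy.

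Total counts ran from 80647185 to 104273669 per library. Keratins of the ductal lineage were abundant in all 16 libraries: Krt8 lay between 4958 and 12740 CPM (counts scaled to a common library size, with TMM factors) and Krt19 between 5768 and 16846 CPM. The epithelial markers Epcam and Cldn7 were near 0, with Epcam at 0 to 0.474 CPM in 15 libraries and at 29.0 CPM in GFP library 4. RNA of other cell types was present. The summed level of 20 macrophage markers ran from 1128 to 27291 CPM in GFP, 2379 to 7132 in DP, 999.8 to 3916 in DN and 1310 to 2510 in mScarlet. The highest value was that of GFP library 1. GFP library 4 had the highest sums of 18 acinar markers (29753 CPM) and 15 fibroblast markers (11547 CPM), and outside GFP these sums reached at most 1506 and 1653 CPM. These 2 libraries stand apart, and several results that rest on them are given with and without them. Correlations with marker sums are given with all 16 libraries only.

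NF-kB dimers bind a short DNA element, the kappaB site, and the DNA around the start sites of the 10 genes was searched for it. Windows from 250 bases before to 50 bases after each annotated start were taken from RefSeq on build GRCm38.p6. Of the 10 genes, 8 had at least 1 window, with 11 windows in all. Nfkb1 and Relb had none. The sequences below run 5′ to 3′ on the strand of the gene. They are shown for Nfkbia, Tnfaip3 and Icam1, an inhibitor, a regulator and a target with matches, and for Rela and Birc3, a subunit and a target without. Capitals mark stretches that match GGNNNTTCC on either strand.
Nfkbia, chr12:55492598-55492897, minus strand: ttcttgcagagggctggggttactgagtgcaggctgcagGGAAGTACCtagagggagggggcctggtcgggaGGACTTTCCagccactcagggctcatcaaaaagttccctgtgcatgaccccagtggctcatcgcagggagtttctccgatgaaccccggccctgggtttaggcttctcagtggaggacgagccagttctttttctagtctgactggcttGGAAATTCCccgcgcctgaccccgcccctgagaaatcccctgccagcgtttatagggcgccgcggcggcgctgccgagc
Tnfaip3, chr10:19015361-19015660, minus strand: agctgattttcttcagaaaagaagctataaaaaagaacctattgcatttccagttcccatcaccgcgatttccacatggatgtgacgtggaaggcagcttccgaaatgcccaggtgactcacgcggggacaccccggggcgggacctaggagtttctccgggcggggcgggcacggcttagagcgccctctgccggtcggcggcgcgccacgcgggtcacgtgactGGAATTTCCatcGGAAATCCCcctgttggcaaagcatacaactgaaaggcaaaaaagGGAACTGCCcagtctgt
Icam1, chr9:21015690-21015989, plus strand: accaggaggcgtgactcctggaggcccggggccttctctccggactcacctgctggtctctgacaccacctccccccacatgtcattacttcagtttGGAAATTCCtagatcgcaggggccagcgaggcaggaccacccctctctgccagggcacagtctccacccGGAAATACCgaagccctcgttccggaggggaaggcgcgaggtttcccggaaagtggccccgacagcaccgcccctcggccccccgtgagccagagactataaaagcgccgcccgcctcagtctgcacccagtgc
Rela, chr19:5637291-5637590, plus strand: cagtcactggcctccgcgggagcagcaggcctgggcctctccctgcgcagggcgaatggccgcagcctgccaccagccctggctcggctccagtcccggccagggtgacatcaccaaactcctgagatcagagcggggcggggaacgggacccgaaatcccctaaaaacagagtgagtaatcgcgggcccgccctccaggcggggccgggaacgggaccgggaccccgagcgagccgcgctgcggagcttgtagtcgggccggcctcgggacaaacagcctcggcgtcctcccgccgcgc
Birc3, chr9:7873121-7873420, minus strand: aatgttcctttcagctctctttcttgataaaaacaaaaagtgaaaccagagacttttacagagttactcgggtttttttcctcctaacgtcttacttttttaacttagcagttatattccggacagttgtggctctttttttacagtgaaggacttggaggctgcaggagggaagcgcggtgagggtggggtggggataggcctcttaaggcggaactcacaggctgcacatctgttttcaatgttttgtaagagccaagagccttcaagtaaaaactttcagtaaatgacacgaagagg
In the Nfkbia window 3 stretches matched, in the printed Tnfaip3 window 3 and in the Icam1 window 2. No stretch in the Rela and Birc3 windows matched, which says only that these letters do not occur there. Some stretches matched the pattern on both strands and were counted as 1 stretch.

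Over the 8 genes with windows, 6 had a match to the short pattern, namely Nfkb2, Nfkbia, Tnfaip3, Bcl3, Icam1 and Tnfaip2. Of all 27025 genes with such windows, 20.7% had 1, as did 18.5% of the 32851 windows. The longer kappaB consensus, which overlaps the short pattern at several places, was matched in 5 of the 8 genes, namely Nfkb2, Nfkbia, Tnfaip3, Bcl3 and Tnfaip2, against 9.55% of all genes with windows. The letters of the short pattern were chosen after these windows had been seen, so the shares are a description. A match is not a binding event, and no binding was measured here.

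**Figure D1:**
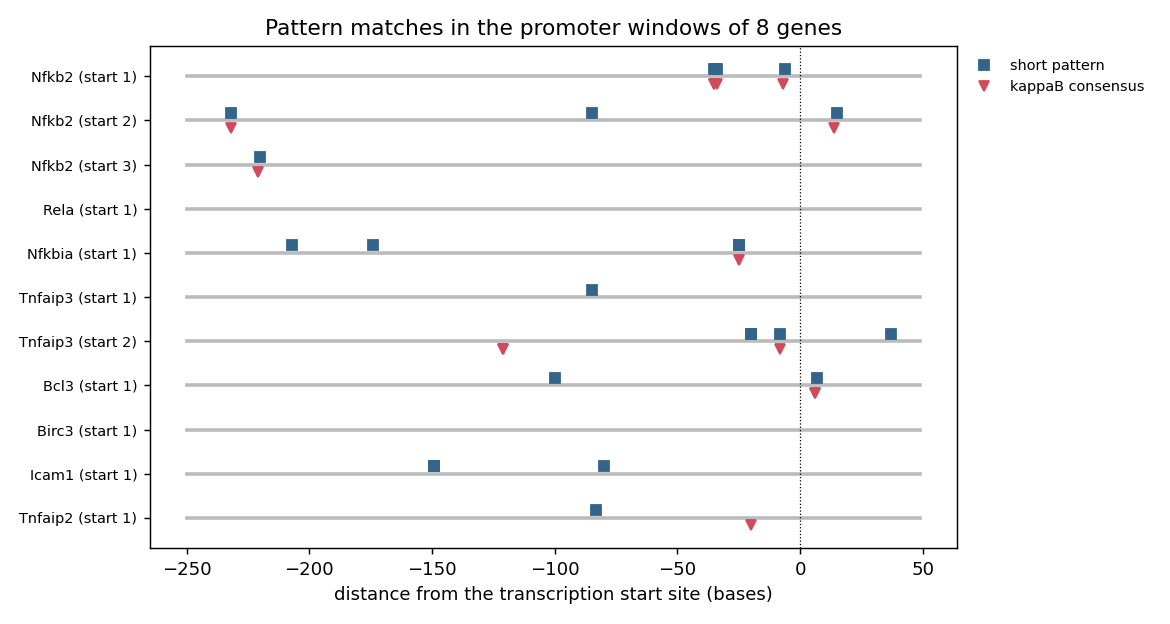
Positions of pattern matches in the promoter windows of the 8 genes with RefSeq windows. The x axis gives the distance of a match's centre from the start site in bases, each grey line is 1 window of 300 bases, squares mark the short pattern and triangles the kappaB consensus. Rela and Birc3 show no match.

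The genes differed in level by more than 2 orders of magnitude when expressed per length of transcript. Nfkbia, which encodes IkB-alpha, was highest at 625 ± 122 CPM per kb of its longest coding transcript (SD, n = 16 libraries), and lay above Rela in 16 of 16 libraries. Rela, the transactivating subunit of the canonical dimer, was second at 173 ± 21.0 CPM per kb and lay above Icam1 in all 16. Icam1, an adhesion molecule that binds leukocyte integrins, followed at 119 ± 22.9 CPM per kb. Bcl3 (94.3 ± 12.5), Nfkb2 (92.5 ± 18.9) and Tnfaip2 (92.2 ± 19.9 CPM per kb) did not differ beyond their spread, and neither Bcl3 over Nfkb2 (8 of 16 libraries) nor Nfkb2 over Tnfaip2 (9 of 16) held a constant order. Relb (54.2 ± 8.08) and Tnfaip3 (49.3 ± 19.5 CPM per kb) also overlapped. Birc3 (3.60 ± 1.94) and Nfkb1 (2.51 ± 0.761 CPM per kb) were lowest, and Rel, the remaining family member, was lower still at 0.412 ± 0.281 CPM per kb.

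Among the subunits, Nfkb1 therefore stood far below its partners in transcript level. The ratio of Rela to Nfkb1, in CPM per kb of the longest coding transcript, had a median of 71.0 over the 16 libraries (36.5 to 153). Per kb of all annotated exons, which are much longer for Nfkb1 (12061 against 4117 bases), the median was 184. Rela exceeded Nfkb2 by a median of 1.95 times and Relb by 3.22 times per kb of the longest coding transcript. Protein levels and the processing of the precursors were not measured.

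**Figure D2:**
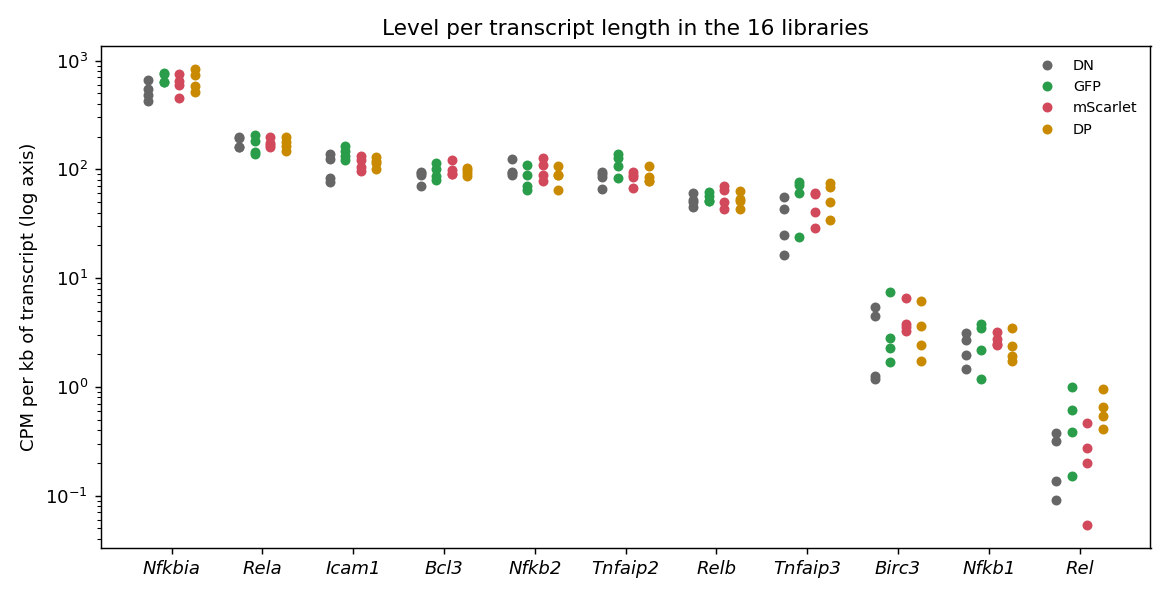
Level of each gene per length in the 16 libraries. The y axis is CPM per kb of the longest coding transcript on a log axis, each point is 1 library and the colours mark the 4 populations. Nfkbia lies at the top, between 423 and 841, Nfkb1 between 1.18 and 3.80 and Rel below 1, with the populations overlapping for each of the 10 genes.

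The subunits were at similar levels in the 4 populations. Rela (chromosome 19, 5637442 to 5648134, GRCm38) was at 434, 525, 534 and 434 CPM in DN libraries 1 to 4, at 376, 395, 564 and 493 in GFP, at 450, 534, 434 and 470 in mScarlet and at 402, 532, 442 and 483 in DP. The populations overlapped throughout. Fitted differences of Rela from DN were -0.08 in GFP, -0.03 in mScarlet and -0.05 in DP on the log2 scale, each with a standard error (SE) of 0.14. The 95% interval for GFP vs DN, -0.38 to 0.23, leaves room for moderate differences in either direction.

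Nfkb2 (chromosome 19, 46300994 to 46312400), the precursor of p52, was at 474, 362, 356 and 338 CPM in DN libraries 1 to 4, at 421, 270, 340 and 248 in GFP, at 490, 420, 338 and 300 in mScarlet and at 408, 338, 339 and 247 in DP. Library 1 was the highest and library 4 the lowest in every population. Nfkb2 averaged 320 ± 78.0 CPM over GFP and 383 ± 62.0 CPM over DN (SD, n = 4; edgeR log2 fold change -0.26 with SE 0.20, adjusted p = 0.717), a difference within the spread. Its exons overlap those of Psd and AC114539.1 over 18.1% of their length, and the sources used here do not say whether counting used strand.

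Relb (chromosome 7, 19606217 to 19629438), the partner of p52, ran from 94.8 to 140 CPM in DP, 96.0 to 156 in mScarlet, 112 to 136 in GFP and 98.6 to 134 in DN. Its largest difference from DN was 0.14 (SE 0.17) in mScarlet on the log2 scale. Nfkb1 (chromosome 3, 135584655 to 135691969), the precursor of p50, ran from 7.09 to 14.3 CPM in DP, 9.89 to 13.2 in mScarlet, 4.88 to 15.6 in GFP and 6.02 to 12.8 in DN. Its interval was wide, from -0.53 to 0.95 on the log2 scale for GFP vs DN. Over the 16 libraries Nfkb1 correlated with the macrophage sum (Pearson r = 0.53, and 0.70 after removal of population means), a description over libraries that share their populations and numbers. Nfkb1 also correlated with the erythroid (r = 0.55), lymphocyte (0.43) and neutrophil sums (0.38), and its lowest r was -0.19 (acinar). After removal of population means, Birc3 (r = 0.66) and Nfkb2 (0.54) correlated with the macrophage sum as well, and the lowest value was -0.47 (Rela). The part of RNA from macrophages or other cells in the level of Nfkb1 was not tested.

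**Figure D3:**
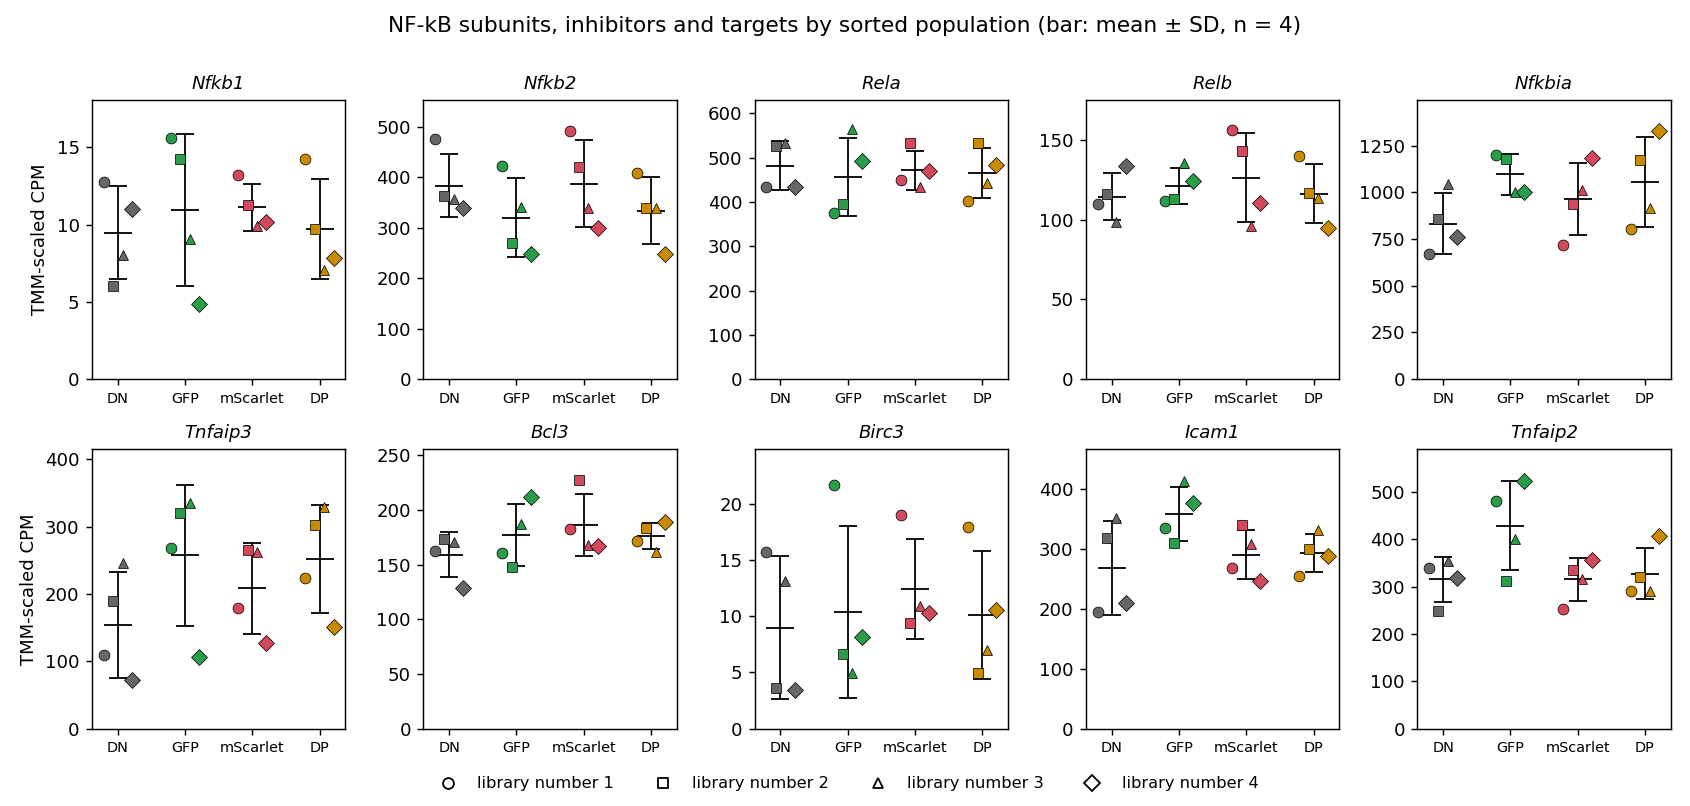
TMM-scaled CPM of the 10 genes in the 4 populations. Each symbol is 1 library, its shape gives the library number, and bars show the mean ± SD of 4 libraries. The ranges of the populations overlap in every panel, and Nfkbia, Tnfaip3, Icam1 and Tnfaip2 have their highest mean in GFP.

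The inhibitors had higher means in the reporter-positive populations than in DN, without passing the test. Tnfaip3 (chromosome 10, 19000910 to 19015410) encodes a ubiquitin-editing enzyme that switches off signalling from TNF and Toll-like receptors to IKK. It was at 110, 190, 247 and 71.7 CPM in DN libraries 1 to 4, at 269, 320, 336 and 106 in GFP, at 179, 266, 262 and 128 in mScarlet and at 223, 302, 329 and 152 in DP. Library 4 was the lowest in each population, and DN was the lowest of the 4 populations at each library number. Mean levels were 258 ± 105 CPM in GFP, 252 ± 80.4 in DP, 208 ± 67.2 in mScarlet and 155 ± 78.8 in DN (SD, n = 4). The populations overlapped, and the log2 fold change of GFP vs DN was 0.74 (SE 0.40, edgeR adjusted p = 0.564), that of mScarlet vs DN 0.43 (SE 0.40, edgeR adjusted p = 0.706) and that of DP vs DN 0.70 (SE 0.40, edgeR adjusted p = 0.431). Without GFP libraries 1 and 4 the log2 fold change of GFP vs DN was 1.06 (SE 0.41, edgeR adjusted p = 0.667).

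Nfkbia (chromosome 12, 55489409 to 55492647) was at 668, 860, 1045 and 759 CPM in DN libraries 1 to 4, at 1200, 1180, 1002 and 1004 in GFP, at 719, 935, 1014 and 1182 in mScarlet and at 803, 1174, 917 and 1327 in DP. DN library 3 lay above GFP libraries 3 and 4, and otherwise GFP was above DN. The log2 fold change of GFP vs DN was 0.40 (SE 0.19, edgeR adjusted p = 0.497) and that of DP vs DN 0.34 (SE 0.19, edgeR adjusted p = 0.401). Bcl3 (chromosome 7, 19808462 to 19822824), a nuclear IkB protein that binds dimers of p50 or p52, averaged 186 ± 28.4 CPM in mScarlet, 177 ± 28.3 in GFP, 176 ± 12.3 in DP and 159 ± 20.5 in DN (SD, n = 4). Its differences from DN were 0.15 to 0.23 on the log2 scale, each with an SE of 0.14, and did not pass the test.

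The targets Icam1 and Tnfaip2 had their highest means in GFP. Icam1 (chromosome 9, 21015940 to 21028814) was at 195, 318, 351 and 209 CPM in DN libraries 1 to 4, at 334, 310, 413 and 377 in GFP, at 269, 339, 307 and 246 in mScarlet and at 255, 300, 331 and 288 in DP. DN libraries 2 and 3 lay within the range of GFP. The log2 fold change of GFP vs DN was 0.42 (SE 0.18, edgeR adjusted p = 0.478).

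Tnfaip2 (chromosome 12, 111442450 to 111455018), a TNF-induced protein of membrane protrusions, was at 340, 249, 355 and 318 CPM in DN libraries 1 to 4, at 482, 312, 400 and 523 in GFP, at 252, 336, 317 and 356 in mScarlet and at 291, 321, 291 and 407 in DP. The 2 highest values were those of GFP libraries 1 and 4. The log2 fold change of GFP vs DN was 0.44 (SE 0.18, edgeR adjusted p = 0.454), that of GFP vs mScarlet 0.45 (SE 0.18, edgeR adjusted p = 0.177) and that of DP vs GFP -0.39 (SE 0.18, edgeR adjusted p = 0.297). Without GFP libraries 1 and 4 the log2 fold change of GFP vs DN was 0.16 (SE 0.19, edgeR adjusted p = 0.848). Over 24 other settings, that omission among them, it ran from 0.18 to 0.57 in GFP vs mScarlet. In DP vs GFP it ran from -0.54 to -0.11. Over the 16 libraries Tnfaip2 correlated with the sums of islet (r = 0.62), endothelial (r = 0.60) and fibroblast markers (r = 0.59). The islet sum was 27.8 and 41.2 CPM in GFP libraries 1 and 3 and at most 1.87 CPM in any other library. The endothelial sum ran from 10.7 to 66.7 CPM. With the sum of PDAC epithelial markers the correlation of Tnfaip2 was negative (r = -0.55). The part of RNA from islet, endothelial or fibroblast cells in its level was not tested. Fewer cells of a type cannot be told apart from less RNA per cell in these bulk libraries.

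Birc3 (chromosome 9, 7847468 to 7873205), a ubiquitin ligase recruited to TNF receptors, was low in all populations. It was at 15.7, 3.65, 13.1 and 3.46 CPM in DN libraries 1 to 4, at 21.7, 6.61, 4.95 and 8.16 in GFP, at 19.0, 9.39, 10.9 and 10.3 in mScarlet and at 17.9, 4.99, 6.98 and 10.6 in DP. Library 1 was the highest in every population. Its differences from DN had the widest intervals of the 10 genes, from -1.01 to 1.41 on the log2 scale for GFP vs DN. That difference was 0.20, and it turned to -0.46 without GFP library 1 (SE 0.55, edgeR adjusted p = 0.801) and to -0.66 without GFP libraries 1 and 4 (SE 0.63, 0.799).

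With the population as the only term, none of the 10 genes was called in any comparison. A gene was called at a Benjamini-Hochberg adjusted p under 0.05 in edgeR's quasi-likelihood test, adjusted over all 15963 genes. In GFP vs DN 0 of 10 genes were called, and so were 0% of all genes. In mScarlet vs DN 0 of 10 were called against 0.996% of all genes, in DP vs DN 0 against 2.13%, in GFP vs mScarlet 0 against 1.82%, in DP vs GFP 0 against 0.445% and in DP vs mScarlet 0 against 0%. The counts of 0 stand near these background shares and are not a result particular to the 10 genes. DESeq2 and limma voom also called 0 of the 10 in every comparison. DESeq2 called more of all genes than edgeR in each comparison. Its counts of 0 therefore stand against larger shares than those above, and its counts over all genes are in the closing section.

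The averaged effects of the gates gave the same count. The effect of the GFP gate, averaged over mScarlet-negative and mScarlet-positive cells, called 0 of 10 genes and 0% of all genes. The effect of the mScarlet gate, averaged likewise, called 0 of 10 against 8.88% of all genes, and the interaction of the gates called 0 of 10 against 0%. At an unadjusted p under 0.05 there were 3 of the 10 genes in GFP vs DN (Nfkbia, Icam1 and Tnfaip2, all higher in GFP), against 10.0% of all genes. By the same measure there was 1 of the 10, Tnfaip2, in GFP vs mScarlet (against 19.3% of all genes) and in DP vs GFP (16.0%). In the remaining 6 tests there was none. The shares of all genes were 14.3% in mScarlet vs DN, 15.8% in DP vs DN and 3.03% in DP vs mScarlet. For the GFP gate the share was 9.93%, for the mScarlet gate 24.1% and for the interaction 3.35%. GFP vs DN, GFP vs mScarlet and DP vs GFP share the GFP libraries.

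No gene of the 10 had populations that did not overlap. Over all genes the 4 against 4 libraries did not overlap for 4.19% in GFP vs DN, 11.1% in mScarlet vs DN, 13% in DP vs DN, 8.95% in GFP vs mScarlet, 8.1% in DP vs GFP and 2.61% in DP vs mScarlet. The fitted differences were positive for 8 of 10 genes in GFP vs DN (median 0.21 on the log2 scale, against 0.02 over all genes), for 8 in mScarlet vs DN (median 0.18 against 0.00) and for 8 in DP vs DN (median 0.09 against 0.02). These 3 comparisons share the DN libraries, so their directions are not separate observations.

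**Figure D4:**
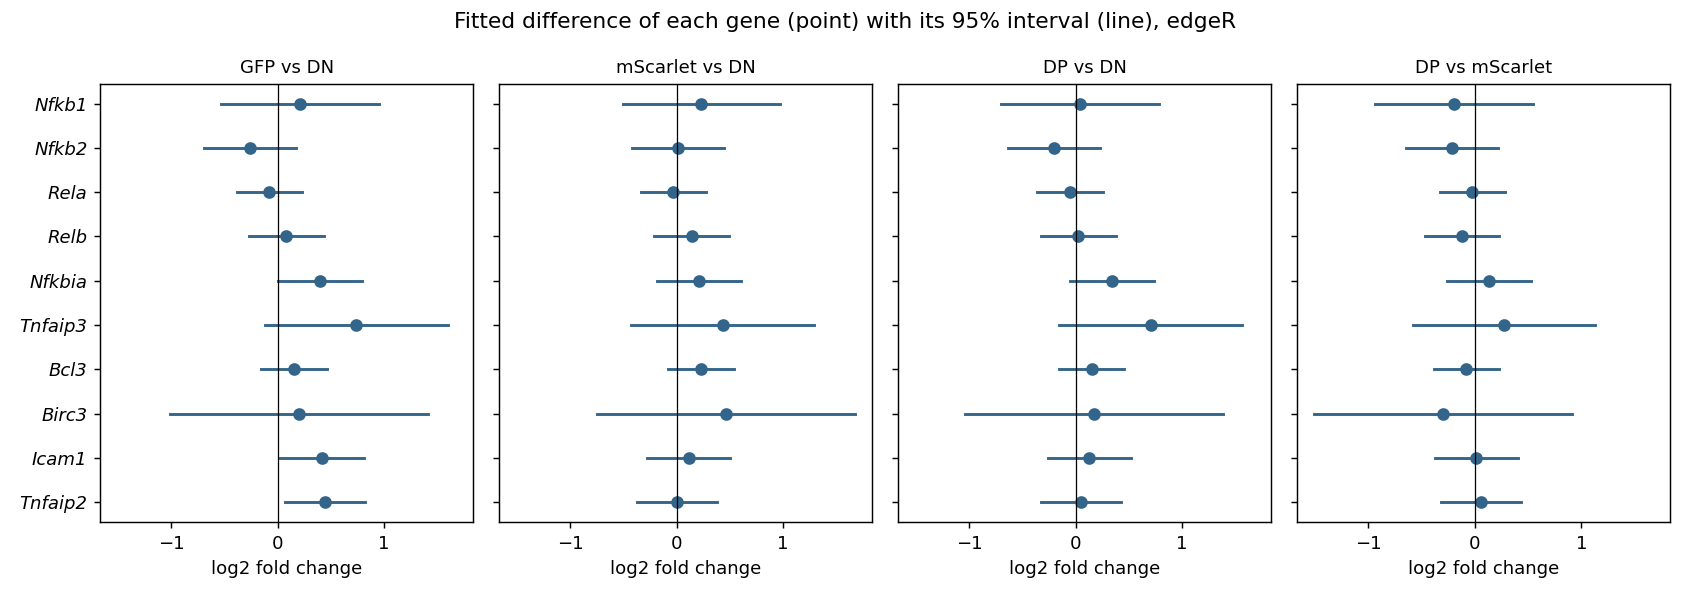
Fitted log2 fold change of each gene (point) with its 95% interval (line) from the edgeR fit in 4 comparisons. Positive values are higher in the population named first. Tnfaip3 and Birc3 have the widest intervals, and the intervals of Nfkbia, Icam1 and Tnfaip2 lie just above 0 in GFP vs DN, before adjustment over all genes.

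Libraries with the same number resembled each other across populations. For 5 of the 6 comparisons the deviations of same-numbered libraries from their population means correlated at over 0.1 in all 4 pairs. The exception was GFP vs mScarlet, where the lowest was 0.092. The sample titles give the same numbers to all 4 populations, without saying whether a number stands for 1 mouse, 1 sort or 1 day. The number was added to the fit as a block.

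With the block, Tnfaip3 was higher in DP than in DN (edgeR log2 fold change 0.79 with SE 0.15, adjusted p = 0.0109). It was the only 1 of the 10 genes called in that comparison, in which 6.11% of all genes were called. The call was lost without DN library 1 (edgeR adjusted p = 0.0705) or without DP library 4 (0.0560) and held without each of the other 14 libraries. It also held without GFP libraries 1 and 4 (edgeR adjusted p = 0.00206). For Tnfaip3 the blocked log2 fold change was 0.77 in GFP vs DN (edgeR adjusted p = 0.0907) and 0.52 in mScarlet vs DN (edgeR adjusted p = 0.0724), both short of the threshold.

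In the remaining comparisons the block called 0 of the 10 genes. Where the numbers paired all libraries, the background shares were 0.0689% of all genes in GFP vs DN, 5.1% in mScarlet vs DN, 4.96% in DP vs GFP and 0% in DP vs mScarlet. For the averaged gates they were 0.482% (GFP) and 14.2% (mScarlet), and for the interaction 0%.

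Within library numbers, Tnfaip3 was higher than in the same-numbered DN library in 4 of 4 pairs for each reporter-positive population. The ratios were 1.36 to 2.45 for GFP, 1.06 to 1.78 for mScarlet and 1.33 to 2.12 for DP. It was also higher in DP than in mScarlet in 4 of 4 pairs, by 1.14 to 1.26 times. Tnfaip2 was higher in GFP than in DN in 4 of 4 pairs (1.13 to 1.65 times). Nfkb2 was lower than in DN in 4 of 4 pairs both for GFP (ratios 0.734 to 0.956) and for DP (0.730 to 0.951). Icam1 was lower in DP than in GFP in 4 of 4 pairs (0.763 to 0.968).

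Such agreement is common among all genes. In GFP vs DN 3 of 10 genes went 1 way in all 4 pairs, against 22.2% of all genes. In mScarlet vs DN it was 1 against 28.6%, in DP vs DN 2 against 32.4%, in DP vs GFP 1 against 25.1% and in DP vs mScarlet 1 against 17.2%. In GFP vs mScarlet, where the pairing did not hold for every pair, it was 0 of 10 against 24.0%. With 4 pairs an exact paired permutation test cannot go below p = 0.125 (two-sided).

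The library number accounted for more of the spread of some genes than the population did. Averaged over the 4 populations, Tnfaip3 was at 195, 269, 293 and 114 CPM in libraries numbered 1 to 4, a range of 2.57-fold, and the number held 70.0% of its variance against 23.6% for the population. The test of the number in the blocked fit, chosen after the data had been seen, called Tnfaip3 (edgeR adjusted p = 0.00239), Nfkb2 (0.0162) and Birc3 (0.0473), that is 3 of 10 genes against 7.87% of all genes. Nfkb2 averaged 448, 348, 343 and 283 CPM over numbers 1 to 4, and Birc3 18.6, 6.16, 8.99 and 8.13 CPM. Tnfaip3 was called without each library in turn. Nfkb2 missed the threshold without DP library 4 (edgeR adjusted p = 0.0513), and Birc3 was called in only 2 of the 16 fits that left out a library, with an adjusted p of up to 0.159 without GFP library 1.

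Marker sums of other cell types also differed by number. Neutrophil markers were highest in library 1 of every population, at 690 CPM in mScarlet, 688 in DN, 498 in DP and 300.4 in GFP for the sum of 10 genes, and none of them was at 0 throughout a population. Birc3 correlated with that sum (r = 0.73, n = 16). Lymphocyte markers were likewise highest in library 1, from 21.0 CPM in mScarlet to 55.8 CPM in GFP for the sum of 14 genes, and Nfkb2 correlated with that sum (r = 0.74, n = 16). The erythroid sum was also highest in library 1 of every population, from 205 CPM in mScarlet to 4539 CPM in GFP. Birc3 (r = 0.62), Nfkb2 (0.55) and Tnfaip3 (0.43) correlated with it. Nfkb2 also correlated with the neutrophil sum (0.47) and Birc3 with the lymphocyte sum (0.46), so neither gene tracked a single sum. For Tnfaip3 these values were -0.04 (neutrophil) and 0.13 (lymphocyte). The part of these cell types in the differences between numbers was not tested. Over the 10 genes the median share of variance was 19.3% for the population and 35.6% for the number, against 25.1% and 25.9% over all tested genes.

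**Figure D5:**
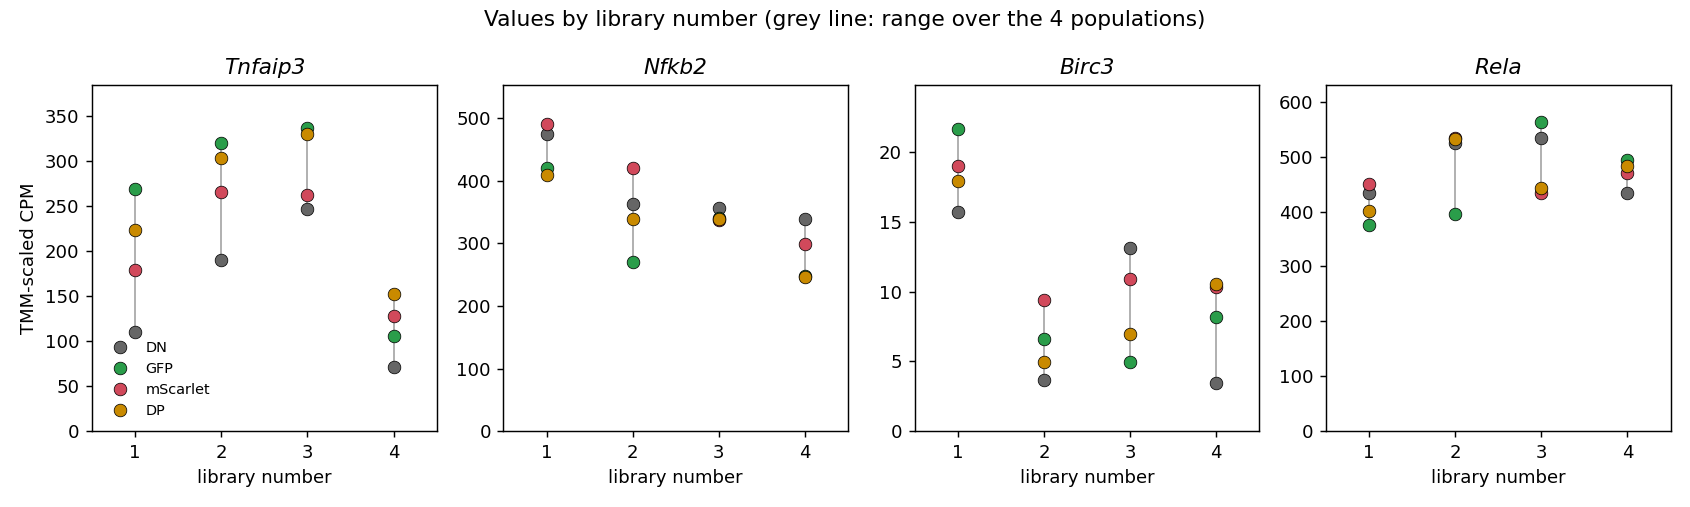
TMM-scaled CPM of Tnfaip3, Nfkb2, Birc3 and Rela by library number. Each point is 1 library, colours mark the populations and the grey line spans the 4 populations of a number. Tnfaip3 is lowest at number 4, where the populations lie between 71.7 and 152 CPM, and Nfkb2 and Birc3 are highest at number 1.

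The 10 genes did not move as 1 group across the libraries. Of their 45 pairs, 26 had a positive Pearson correlation of log2(CPM + 1) over the 16 libraries, with a median of 0.09 and a range of -0.67 (Nfkb2 and Nfkbia) to 0.64 (Tnfaip3 and Icam1). The 5 genes whose pattern was most like the mean of the 10 were Slc49a4 (r = 0.83), Trafd1 (0.82), Susd6 (0.81), Dennd1c (0.80) and Rnf123 (0.80), each over 16 libraries.

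A wider list of 125 pathway genes, of which 122 were tested, was called about as often as all genes in GFP vs DN (0 against 0%), mScarlet vs DN (1, or 0.820%, against 0.996%), DP vs DN (2, or 1.64%, against 2.13%) and DP vs mScarlet (0 against 0%). In GFP vs mScarlet there were 5 calls (4.10% against 1.82% of all genes) and in DP vs GFP 2 (1.64% against 0.445%). Il18, a cytokine of the IL-1 family, was the single call in mScarlet vs DN. It was at 11.9, 27.1, 16.4 and 14.5 CPM in DN libraries 1 to 4, at 22.3, 30.1, 20.1 and 22.4 in GFP, at 62.2, 57.5, 49.9 and 64.6 in mScarlet and at 66.7, 54.6, 42.1 and 64.9 in DP. All 8 mScarlet-positive libraries lay above all 8 others. Il18 rose in mScarlet vs DN (edgeR log2 fold change 1.74 with SE 0.24, adjusted p = 0.00393) and in DP vs DN (1.71, SE 0.24, edgeR adjusted p = 0.00472), and both calls held without each library in turn. The gene overlaps Bco2 and Tex12 on the opposite strand.

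Traf1, an adaptor of TNF receptor signalling that is itself an NF-kB target, went the opposite way. It was at 41.7, 59.9, 28.0 and 38.6 CPM in DN libraries 1 to 4, at 46.4, 40.2, 25.4 and 43.7 in GFP, at 20.2, 15.5, 17.8 and 25.4 in mScarlet and at 16.0, 9.55, 12.5 and 11.6 in DP. Every DP library lay below every DN and GFP library. Traf1 fell in DP vs DN (edgeR log2 fold change -1.76 with SE 0.26, adjusted p = 0.00472), and this call held without each library in turn. It also fell in DP vs GFP (-1.65, SE 0.26, edgeR adjusted p = 0.0215), where the call held in 11 of 16 fits that left out a library and was lost without GFP libraries 1 and 4 (0.224), where the log2 fold change was -1.39.

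The ligands, 10 tested of 12 listed, included no call but Il18 in the comparisons between pairs of populations. Besides the comparisons with DN, Il18 was lower in GFP than in mScarlet (edgeR log2 fold change -1.30 with SE 0.23, adjusted p = 0.0222) and higher in DP than in GFP (1.27, SE 0.23, 0.0371). These calls held in 12 and 5 of the 16 fits that left out a library, and both were lost without GFP libraries 1 and 4 (edgeR adjusted p = 0.211 and 0.328), where the log2 fold changes were nearly as large, at -1.22 and 1.19. Tnf, the prototype inducer of the canonical pathway, averaged 464 ± 110 CPM in DP, 440 ± 126 in GFP, 422 ± 74.7 in mScarlet and 292 ± 124 in DN (SD, n = 4). The gene was not called in DP vs DN (edgeR log2 fold change 0.67 with SE 0.29, adjusted p = 0.274) and rose there with the library number as a block (0.73, edgeR adjusted p = 0.0269). Of 20 macrophage markers 19 had positive differences in DP vs DN (median 1.63 on the log2 scale) and 20 in GFP vs DN (median 2.77), but only 1 in mScarlet vs DN (median -0.72). None of the 20 was called in these comparisons, none was at 0 throughout a population, and their part in the level of Tnf was not tested. Among 8 further genes, namely Rel, more IkB genes and other regulators of NF-kB, none was called. With the block, Nfkbiz, a nuclear IkB protein, rose in DP vs DN (edgeR log2 fold change 0.59, adjusted p = 0.0346). The block called 14 of the 122 pathway genes in that comparison, 8 higher and 6 lower (11.5%, against 6.11% of all genes), and of the 42 targets 2 higher and 4 lower. In DP vs GFP it called 9 (7.38% against 4.96%), with the ligand Tnfsf10 among them (edgeR log2 fold change 2.68 with SE 0.62, adjusted p = 0.0305, and 0.0512 without the block). The blocked counts were 11 in mScarlet vs DN (9.02% against 5.1%) and 2 in GFP vs DN (1.64% against 0.0689%).

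Further secreted targets were higher in GFP than in mScarlet, as were fibroblast markers. In that comparison 1.82% of all genes were called, and 4 of 42 tested targets rose, namely Il6 (edgeR log2 fold change 4.91 with SE 0.95, adjusted p = 0.0270), Ccl7 (4.96, SE 0.98, 0.0287), Cxcl1 (2.11, SE 0.46, 0.0339) and Saa3 (5.47, SE 1.25, 0.0397). Il6 was at 31.8, 3.9, 2.43 and 28.5 CPM in GFP libraries 1 to 4 and at 0.177 to 1.21 CPM in mScarlet. The 2 highest values were again GFP libraries 1 and 4, and without them none of the pathway genes was called in GFP vs mScarlet. Their log2 fold changes were then 2.52 (Il6), 2.82 (Ccl7), 0.96 (Cxcl1) and 3.02 (Saa3). Leaving out single libraries kept the 4 calls in 8 (Saa3) to 12 (Il6 and Ccl7) of 16 fits. Fibroblast markers moved with them. Their sum was 690 to 11547 CPM in GFP and 35.6 to 111 CPM in mScarlet, with 7 of 15 markers called higher in GFP. Macrophage markers summed to 1128 to 27291 CPM in GFP and 1310 to 2510 in mScarlet. The part of RNA from these cells in the 4 calls was not tested.

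For the mScarlet gate averaged over both GFP states, 16 of the 122 pathway genes were called (13.1%, against 8.88% of all genes), 12 higher and 4 lower. With the block the count was 25 (20.5% against 14.2%), and for the GFP gate it was 3 (2.46% against 0.482%). The receptors and adaptors held 4 higher calls and 1 lower among 27 tested, with Traf1 (edgeR log2 fold change -1.37 with SE 0.18, adjusted p = 0.000715) and Irak2 (0.47, SE 0.13, 0.0323), a kinase of IL-1 and Toll-like receptor signalling, among them. Il18r1, a receptor chain for IL-18, also rose (1.12, SE 0.32, edgeR adjusted p = 0.0409), as did Tlr3, a sensor of double-stranded RNA (1.02, SE 0.29, 0.0409). The kinase list had 1 call of 16, Tab2, an adaptor of the TAK1 kinase (0.90, SE 0.26, edgeR adjusted p = 0.0409), and the ubiquitin list 1 of 19, Tax1bp1, which works with the Tnfaip3 product (1.16, SE 0.31, 0.0296). The ligands Il18 (1.51, SE 0.17, edgeR adjusted p = 0.000347) and Tnfsf10 (1.53, SE 0.39, 0.0250), which encodes the death ligand TRAIL, rose. Among the targets 4 rose and 3 fell, with Ptges (-2.93, SE 0.64, edgeR adjusted p = 0.0114), a prostaglandin synthase, and Il6 (-2.56, SE 0.60, 0.0169) lower and Cxcl16 (0.49, SE 0.11, 0.0145), a chemokine, higher. Without GFP libraries 1 and 4 the calls were 3, Il18, Traf1 and Ptges, and the count over all genes fell too. The log2 fold changes were then 1.46 (Il18), -1.25 (Traf1), -1.75 (Ptges), -1.37 (Il6) and 0.36 (Cxcl16). No share was computed without these 2 libraries, so the excess of 13.1% over 8.88% is stated for all libraries only. Leaving out single libraries gave 6 (without DN library 1) to 20 (without mScarlet library 4) pathway calls. Over all genes these single omissions gave 859 to 1664 calls, against 1418 with all libraries. The calls of Il18, Traf1, Ptges, Il6 and Cxcl16 held in all 16 of these fits, that of Tnfsf10 in 12, Tax1bp1 in 9, Irak2 in 6, Tlr3 in 5, Il18r1 in 3 and Tab2 in 2. Of 15 fibroblast markers 10 were called lower under the same gate, and of 17 tested acinar markers 7. Of 15 PDAC epithelial markers 4 were called higher and 0 lower. The part of these cell types in the calls was not tested.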

How the data were processed

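RNA of sorted cells was made into full-length cDNA, amplified by PCR and sequenced, per the labels' protocols. Whole-number counts of reads per Entrez gene were deposited by the authors, without normalization. The submitters' processing notes name GRCm38 (mm10), STAR and DESeq2 1.24.0. The sources used here do not give the counter, the annotation or the use of strand. Symbols came from RefSeq GRCm38.p6 for 24437 of 24467 identifiers. The other 30 held 0.723% to 1.93% of counts and stayed in the totals.

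The 16 libraries were fitted together with edgeR 4.0.16 (R 4.3.3), with its filter by group, TMM scaling and the quasi-likelihood test of 9 contrasts. Alternatives used limma 3.58.1, DESeq2 1.42.0, other scaling, no filter, the library number as a block and omitted libraries. Replicates differed by far more than sampling noise (lowest chi-square per degree of freedom 91.8). They are separate mice per the design, and no label ties a number to a mouse. Same-numbered libraries correlated at over 0.1 in 23 of 24 pairs (median 0.29), and the pairing rests on that and on the numbers shared in the titles. Pairs of different numbers had a median of -0.14. Deviations from a population mean sum to 0, so this value is tied to the first and is not separate evidence. The fit was run on simulated counts with a single spread for all genes and no effect of library number. That setting is unlike these libraries, so the run checks the code and not the fit to these data. Lengths and loci came from GENCODE M21.

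The 10 genes and the pathway and marker lists were chosen with earlier results of these data known. All 10 genes are named. Pathway genes are named where called, up to the 3 smallest adjusted p per list and comparison, with a tie (Tlr3) and a 4th target (Saa3) added, and Tnf, Nfkbiz and Tnfsf10 for calls under the block, these after their values were seen. GFP libraries 1 and 4 were doubted from their markers.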

Additional observations from a re-analysis of the deposited data

Results flagged for a closer look

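Birc3 in the mScarlet population had 1 library far from the others. Its level was 19.0 CPM in library 1, and the next highest was 10.9 CPM in library 3. The 10 genes in 4 populations gave 40 groups of 4 libraries, and this was the only 1 past Dixon's 95% limit, which chance passes in about 1 in 20 groups. Library 1 also had the highest Birc3 value in DN, GFP and DP.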

How the results depend on the processing

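The 10 genes were recomputed over 2130 combinations of gene, comparison and setting. Of the 90 differences 42 took the other sign in at least 1 setting (162 of 2130 values). Each of these 42 was within its own standard error with all libraries, and none was called with the other sign. Differences within their standard error moved by more than that error in 9 cases, all of Birc3 and all without GFP library 1 or without GFP libraries 1 and 4. Birc3 ran from -0.66 to 0.64 in GFP vs DN. 1 difference crossed the threshold: Tnfaip3 in DP vs DN with the library number as a block, so that the members called in that comparison went from 0 to 1. The block changed no other call of the 10 genes. Counts over all genes moved much more, while the 10 genes stayed uncalled under DESeq2, limma voom, other scaling, no filter, the robust spread (added after seeing the data) and each omission. The block gave 11 genes in GFP vs DN, 814 in mScarlet vs DN, 975 in DP vs DN, 791 in DP vs GFP, 77 for the GFP gate and 2270 for the mScarlet gate, against 0, 159, 340, 71, 0 and 1418 without it. In GFP vs mScarlet, where the numbers do not pair all libraries, it gave 1178 against 290. DESeq2 called 246 genes in GFP vs DN, 808 in mScarlet vs DN, 1020 in DP vs DN, 1523 in GFP vs mScarlet, 1005 in DP vs GFP, 50 in DP vs mScarlet, 323 and 2338 for the GFP and mScarlet gates and 39 for the interaction. Limma voom called 1 in GFP vs DN and 147 in GFP vs mScarlet, DESeq2-style scaling in edgeR 107 in DP vs GFP, and no filter 6 for the GFP gate. Without GFP libraries 1 and 4 the counts were 544 in mScarlet vs DN, 743 in DP vs DN, 2 in GFP vs mScarlet, 1 in DP vs GFP, 2 for the GFP gate and 679 for the mScarlet gate. A fit of the 8 libraries compared gave 320, 561, 2 and 0 for mScarlet vs DN, DP vs DN, GFP vs mScarlet and DP vs GFP. Leaving out 1 library gave 0 to 2 genes in GFP vs DN, 17 (without DN 1) to 317 (without GFP 1) in mScarlet vs DN, 92 (without DP 1) to 509 (without GFP 1) in DP vs DN and 6 (without mScarlet 1) to 548 (without GFP 3) in GFP vs mScarlet. It gave 0 (without DP 3) to 323 (without GFP 3) in DP vs GFP, 0 to 1 in DP vs mScarlet, 0 to 8 for the GFP gate, 859 (without mScarlet 2) to 1664 (without GFP 3) for the mScarlet gate and 0 for the interaction. The cause of these shifts was not tested. The lowest counts of the 10 genes in a library were 338 (Birc3) and 400 (Nfkb1). Sampling noise is relatively largest for these 2 genes, and its part in their spread was not tested.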
